A study of Mus musculus with 16 samples.

Results

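The transcripts described here are a list of 38 genes of Kupffer cells, the macrophages that live in the liver, and of monocytes, the blood cells that can enter it, out of 54838 genes in the count tables. The genes were listed by name from their known roles, and each gene identifier was matched to its mouse symbol. The list holds 7 resident genes (Clec4f, Timd4, Vsig4, Marco, Cd5l, Cd163 and Adgre1), 10 genes of monocytes and cells derived from them (Ccr2, Ly6c2, Plac8, Lyz1, Lyz2, Itgam, Itgax, Cx3cr1, Ms4a6c and Ms4a7) and 21 genes that both kinds of cell, or leukocytes more widely, express.

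Kupffer cells sit in the sinusoids, the small blood vessels of the liver, where they take up bacteria, worn red blood cells and lipoprotein particles. They are maintained by the growth factor CSF1 acting on its receptor and, when they are lost, monocytes that leave the blood under the guidance of the chemokine receptor CCR2 can take their place. Monocyte-derived cells gain some resident genes early and others, such as Timd4, late.

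Messenger RNA of whole liver was sequenced from male wild-type C57BL/6J mice, in libraries made from RNA of snap-frozen tissue. In the injection experiment, 3 samples came from mice given carbon tetrachloride (CCl4), a toxin activated in hepatocytes, mixed 1 to 1 by volume with olive oil, and 3 samples came from mice given olive oil alone, each by intraperitoneal injection at 2 µL per g of body weight and taken at day 3. In the surgical experiment, partial hepatectomy (PH), 5 samples were the liver piece resected at day 0, which served as baseline, and 5 samples were the liver at day 3 after surgery. The PH samples carry the numbers 12 to 16 in their labels. No label names the animal behind a sample, so p-values measure the spread between these samples, which may be technical.

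Levels are given as CPM, the count of a gene relative to all counts of its library, scaled with TMM factors, which adjust for differences in library composition. Total counts per sample were 2795909 to 8647503, so that 3 counts in 1 sample corresponded to between 0.372 and 1.02 CPM. Of the 38 genes, 34 had enough counts to be tested after injection and 28 after PH. Changes are log2 fold changes with their standard error (SE) from edgeR's quasi-likelihood test, fitted over all genes, and a gene is said to have risen or fallen where its Benjamini-Hochberg adjusted p was under 0.05. In whole tissue, fewer cells of a type and less RNA per cell cannot be told apart.

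The label of the list was first set against its own defining genes. All 7 resident genes had counts in 16 of 16 samples, and Clec4f, a lectin restricted to Kupffer cells, had 32.6 to 136 CPM. The monocyte genes were scarcer. Ly6c2 had counts in 8 of 16 samples and Ms4a7 in 10, and Itgax, Itgam and Cx3cr1 had counts in 13, with at most 52 counts in any sample for these 5 genes. Only Lyz2, which Kupffer cells express too, had more than 20 CPM in every sample among the 10 monocyte genes.

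Some libraries stood apart before any comparison, on these genes or over genes at large. Olive oil replicate 1 was the lowest of its group in 32 of the 34 tested members (94.1%), and in 7 of 7 resident genes, against 33.6% of all 11337 genes tested. It was the lowest in 2 of 9 liver endothelial cell genes and 3 of 8 hepatocyte genes. Olive oil replicate 2 was the highest of its group in 27 of the 34 members (79.4%), and in 6 of 7 resident genes, against 33.2% of all genes tested. CCl4 replicate 1 had the highest summed level of 12 neutrophil genes, at 79.8 CPM against 8.05 and 17.7 CPM in CCl4 replicates 2 and 3, and a TMM factor of 0.986 against 1.30 and 1.29. Over genes with at least 20 counts in a pair, it differed from replicates 2 and 3 by a chi-square per degree of freedom of 71.7 and 72.3. Between replicates 2 and 3 that value was 8.97. Results after injection are therefore also given without olive oil replicate 1 or CCl4 replicate 1, and for some genes without olive oil replicate 2.

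**Figure D1:**
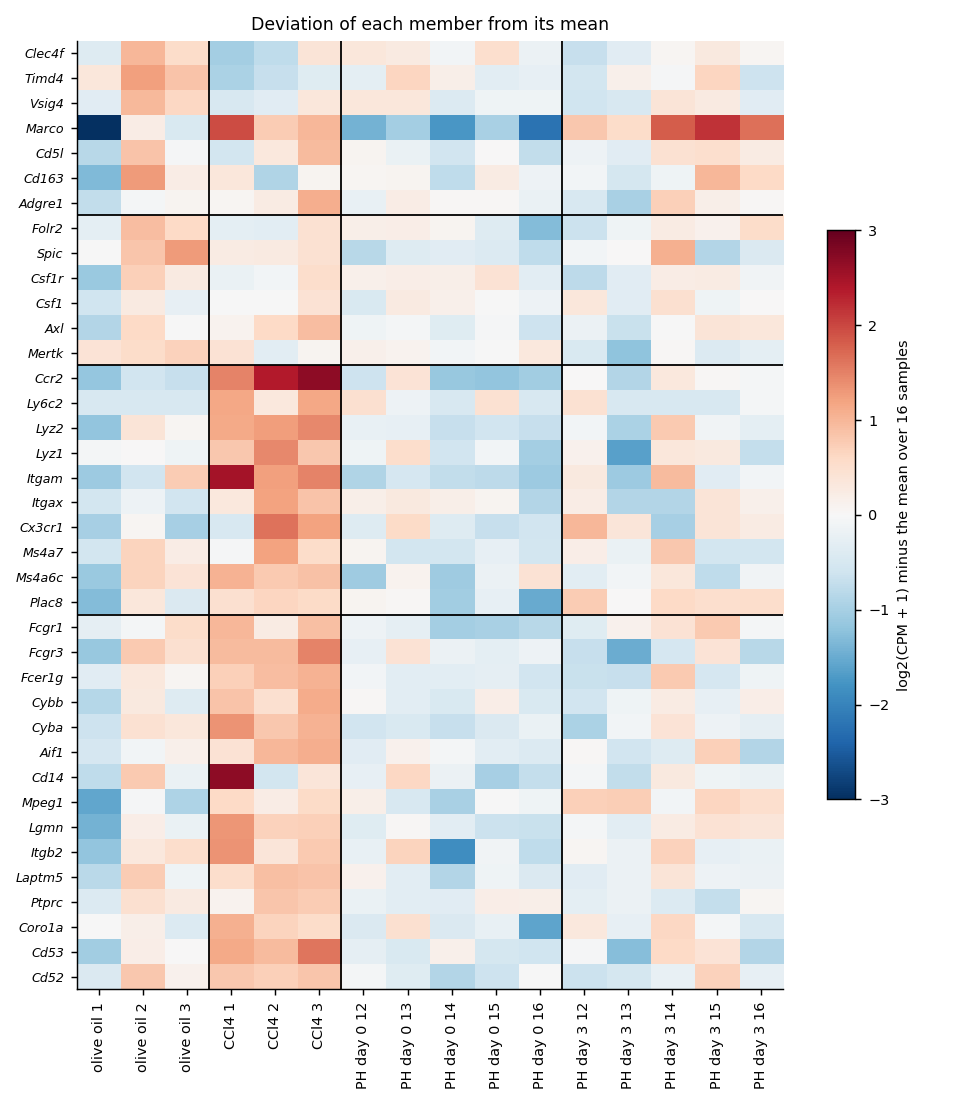
Each row is 1 of the 38 genes and each column 1 of the 16 samples, and the colour gives log2(CPM + 1) minus the gene's mean over all samples, with horizontal lines between resident genes, genes associated with them, monocyte genes and the rest. Olive oil replicate 1 is pale to dark blue in most rows, Marco is blue in every PH day 0 sample and red in every PH day 3 sample, and Ccr2 is red in the 3 CCl4 samples.

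CCl4 and olive oil samples were compared to ask which of these genes differed 3 days after toxic injury. Ccr2, the receptor that brings monocytes out of the blood, was 18.8-fold higher after CCl4, and 7 further members rose by 1.87-fold to 3.02-fold. They were Cd53, Lyz2, Lyz1, Aif1, Cybb, Cyba and Fcer1g. Timd4, a phosphatidylserine receptor of long-established Kupffer cells, was the only member that fell, to 0.293 of its olive oil level. In all 8 of 34 tested members rose (23.5%) and 1 fell, where 11.3% of all genes tested rose and 11.6% fell. Every CCl4 sample was above every olive oil sample for 16 of the 34 members and below it for 1, against 21.8% and 19.9% of all genes tested. The median log2 fold change of the 34 members was 0.87, and that of all genes tested was 0.01. Some of the 34, Ccr2 and Itgam among them, had few counts with olive oil and passed the filter through the CCl4 samples. The numbers that rose or did not overlap, and the median, are therefore those of a partly selected set.

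Resident genes did not move together after CCl4. Of the 7, 0 rose and 1 fell with edgeR, where 11.3% of all genes tested rose and 11.6% fell. At an unadjusted p under 0.05 1 was higher and 1 was lower. DESeq2 and limma-voom each gave 0 that rose and 1 that fell. The median log2 fold change was -0.58, and 3 of the 7 were positive. The median was 0.25 without olive oil replicate 2 and -0.99 without olive oil replicate 1.

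Timd4 (ENSMUSG00000055546, GRCm38 chromosome 11, 46810800 to 46844332, plus strand) had 7.52, 15.0 and 11.3 CPM in the 3 olive oil samples and 2.53, 3.22 and 4.27 CPM in the 3 CCl4 samples. Every CCl4 sample lay below every olive oil sample. The log2 fold change was -1.77 ± 0.36 (SE; edgeR adjusted p = 0.0061). It was -2.00 ± 0.35 without olive oil replicate 1 and -1.63 ± 0.38 without CCl4 replicate 1, and the call held in all 13 other fits.

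Marco (ENSMUSG00000026390, chromosome 1, 120474538 to 120505024, minus strand), a scavenger receptor that binds bacteria and particles, had a change of the opposite sign. It had 1.50, 24.6 and 15.1 CPM with olive oil and 83.6, 36.3 and 42.5 CPM with CCl4. The groups did not overlap, but olive oil replicate 1 was more than 10 CPM below the other olive oil samples, and the log2 fold change of 1.93 ± 0.86 did not pass (edgeR adjusted p = 0.19). It passed only when the spread was taken from all 4 groups in 1 fit (adjusted p = 0.042). Without olive oil replicate 1 the change was 1.40 ± 0.44 (adjusted p = 0.091), and without CCl4 replicate 1 it was 1.47 ± 0.92.

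The other 5 resident genes did not pass, and their groups overlapped. Clec4f had 51.7, 136 and 99.2 CPM with olive oil and 32.6, 39.2 and 87.8 CPM with CCl4 (-0.88 ± 0.52, edgeR adjusted p = 0.30). Vsig4, a complement receptor, changed by -0.68 ± 0.36 and Cd163, the receptor for haemoglobin bound to haptoglobin, by -0.58 ± 0.71. The Cd163 change turned to 0.25 without olive oil replicate 2. Vsig4 fell only without olive oil replicate 1 (-0.99 ± 0.27, adjusted p = 0.046) or with no filter on low counts. Adgre1, which encodes the F4/80 antigen, changed by 0.77 ± 0.34, and without CCl4 replicate 1 it rose by 0.96 ± 0.31 (adjusted p = 0.033). It also rose with library size scaling and with no filter. Cd5l, a secreted inhibitor of apoptosis, changed by 0.18 ± 0.56, and turned to -0.15 without olive oil replicate 1.

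**Figure D2:**
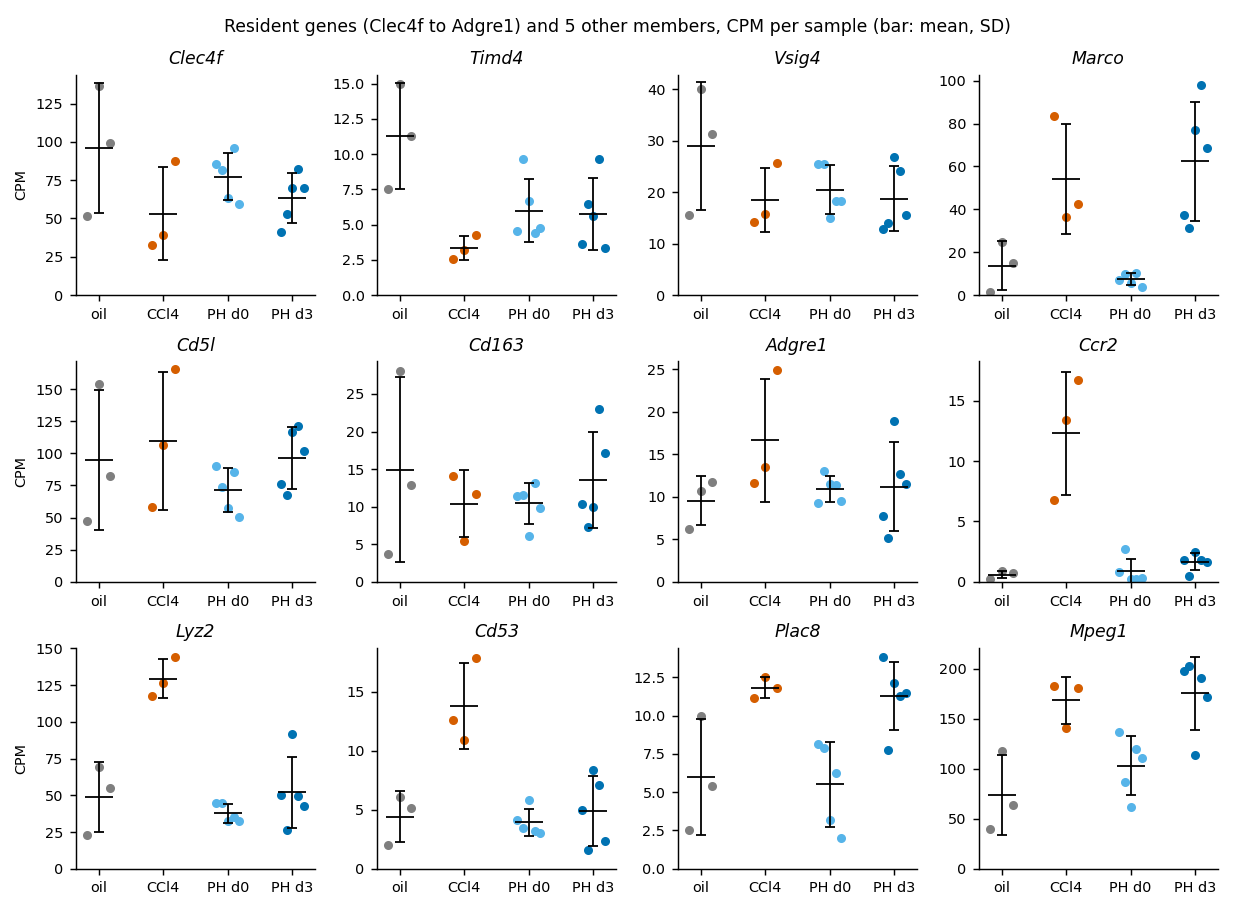
Levels in CPM of the 7 resident genes and of Ccr2, Lyz2, Cd53, Plac8 and Mpeg1, with each point 1 sample, the horizontal bar the group mean and the error bar the SD (n = 3 for olive oil and CCl4, n = 5 for PH day 0 and day 3). Timd4 is below every olive oil sample in the 3 CCl4 samples, Ccr2 is at 6.74 CPM or more only in CCl4, and Marco is at 31.1 CPM or more in all 5 PH day 3 samples and at 10.2 CPM or less in all 5 PH day 0 samples.

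Letters upstream of resident genes are shown because these genes are often grouped by shared regulators, while their changes here differed in sign. Of the genes printed, Marco, Cd5l and Vsig4, none passed after CCl4 and only Marco passed after PH. The 250 bases before the RefSeq transcription start (GRCm38.p6) are given for 3 resident genes whose upstream sequence held the core of a PU.1 site, GAGGAA on either strand. Of the 7 resident genes Adgre1 was not searched. The searched windows of Clec4f, Timd4 and Cd163 held no GAGGAA on either strand, and that of Clec4f held TGGGAA 35 bases before the start. PU.1 is a transcription factor needed for macrophage development. Capitals mark GAGGAA or its reverse complement TTCCTC and, in Marco, TTCCCA, the reverse complement of TGGGAA, the core bound by the Notch effector RBPJ. The regions are chr1:120505025-120505274 (minus strand) for Marco, chr3:87357631-87357880 (plus strand) for Cd5l and chrX:96293439-96293688 (minus strand) for Vsig4.
Marco: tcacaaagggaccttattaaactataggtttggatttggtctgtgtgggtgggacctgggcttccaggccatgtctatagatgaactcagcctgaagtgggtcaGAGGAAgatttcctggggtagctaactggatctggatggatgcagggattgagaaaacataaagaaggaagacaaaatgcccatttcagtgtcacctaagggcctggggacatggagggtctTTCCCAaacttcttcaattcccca
Cd5l: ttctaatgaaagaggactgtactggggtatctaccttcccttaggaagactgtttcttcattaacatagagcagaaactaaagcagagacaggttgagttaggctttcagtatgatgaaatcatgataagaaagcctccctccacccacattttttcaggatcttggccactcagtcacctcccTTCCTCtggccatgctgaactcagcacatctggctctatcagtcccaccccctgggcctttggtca
Vsig4: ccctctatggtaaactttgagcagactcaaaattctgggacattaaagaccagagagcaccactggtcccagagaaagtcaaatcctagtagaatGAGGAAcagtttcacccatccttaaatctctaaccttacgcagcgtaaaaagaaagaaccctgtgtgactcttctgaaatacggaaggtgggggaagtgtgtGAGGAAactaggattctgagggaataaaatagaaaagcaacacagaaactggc
The matches began 146 and 24 bases before the start in Marco, 66 bases before it in Cd5l and 155 and 53 bases before it in Vsig4, and none overlapped another. Over windows of 250 bases before to 50 bases after the start, 33 of the 38 members had 41 windows in the RefSeq table. GAGGAA was in 41.5% of these and in 28.3% of all 32851 windows. TGGGAA was in 24.4% of them and 25.6% of all, and a pattern of the interferon-stimulated response element (ISRE) in 4.88% and 3.44%. These are counts of letters on either strand and are not binding sites.

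Genes linked to resident macrophages without being specific to them did not pass after CCl4. Spic, a transcription factor of iron-handling macrophages, changed by -0.69 ± 0.53, and Folr2, a folate receptor, by -0.60 ± 0.38. The growth factor Csf1 changed by 0.30 ± 0.29, and its receptor gene Csf1r by -0.06 ± 0.47, with 19.3, 70.9 and 51.8 CPM in olive oil and 37.3, 40.3 and 62.2 CPM in CCl4. The Csf1r groups overlapped, and its sign changed in 6 of the 13 other fits. Of the receptors for apoptotic cells, Axl changed by 0.55 ± 0.37 and Mertk by -0.50 ± 0.23. Mertk fell only without CCl4 replicate 1 (-0.72 ± 0.22, edgeR adjusted p = 0.023).

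Of the 10 monocyte genes, 6 passed the filter, and these 6 were higher in every CCl4 sample than in any olive oil sample. With edgeR 3 of the 6 rose and 0 fell, and 0 were lower at an unadjusted p under 0.05, with DESeq2 or with limma-voom. Over all genes tested, 11.3% rose and 21.8% were higher without overlap. The median log2 fold change of the 6 was 1.31. Some of the 6, Ccr2 among them, had almost no counts with olive oil and passed the filter through the CCl4 samples. The numbers that rose or did not overlap, and the median, are therefore those of a selected set. Among the genes too low to be tested, Ly6c2 and Itgax were also higher without overlap, and the groups of Cx3cr1 and Ms4a7 overlapped.

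Ccr2 (ENSMUSG00000049103, chromosome 9, 124101950 to 124113557, plus strand) had 1, 4 and 3 counts with olive oil, or 0.251, 0.870 and 0.707 CPM, and 32, 108 and 102 counts with CCl4, or 6.74, 13.4 and 16.7 CPM. The lowest CCl4 sample was above the highest olive oil sample by more than 5 CPM. Ccr2 passed the filter on low counts only through the CCl4 samples, so its call is that of a gene selected by the group where it was high. The log2 fold change was 4.24 ± 0.53 (edgeR adjusted p = 0.00048), and the call held in all 13 other fits, the fit with no filter among them. It was 3.89 ± 0.57 without olive oil replicate 1 and 4.52 ± 0.45 without CCl4 replicate 1.

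Ly6c2, a surface antigen of classical monocytes, had 0 counts in the 3 olive oil samples and 10, 6 and 13 counts in the 3 CCl4 samples. Set against a floor of 3 counts over the olive oil group, it was at least 6.56-fold higher, and it was too low to be tested. Of the 50-base windows of its transcript, 13.3% also occur in Ly6c1, and reads from such windows were not assigned to either gene if they mapped to both.

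Lyz2 and Lyz1 encode lysozymes of myeloid cells and of the gut, respectively, and lie next to each other on chromosome 10. Their coding sequences of 447 bases are 95.1% identical and differ at 22 positions, so that reads can be shared between them. The first 120 coding bases of each, from GENCODE M21 (GRCm38), are given with capitals at the 11 positions that differ.
Lyz1: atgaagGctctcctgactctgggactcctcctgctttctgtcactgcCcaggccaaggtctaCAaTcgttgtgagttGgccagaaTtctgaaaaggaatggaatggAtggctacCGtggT
Lyz2: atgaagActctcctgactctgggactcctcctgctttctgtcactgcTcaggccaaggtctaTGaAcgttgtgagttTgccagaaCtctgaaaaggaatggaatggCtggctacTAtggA
In these 120 bases every identical stretch is shorter than 50 bases. Over the whole transcript, 16.1% of the 50-base windows of Lyz1 also occur in Lyz2, and a read from such a window cannot be assigned.

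Lyz2 had 22.8, 69.0 and 54.9 CPM with olive oil and 118, 126 and 144 CPM with CCl4. The groups did not overlap and Lyz2 rose by 1.37 ± 0.37 (edgeR adjusted p = 0.039). Lyz1 had 4.26, 4.57 and 4.00 CPM against 8.63, 13.9 and 8.53 CPM and rose by 1.25 ± 0.32 (edgeR adjusted p = 0.019), with the limit that the shared stretches set. Without olive oil replicate 1 the Lyz2 call held (1.02 ± 0.18, adjusted p = 0.010) and the Lyz1 call ended (adjusted p = 0.061), while without CCl4 replicate 1 the Lyz2 call ended (adjusted p = 0.12). The Lyz2 call also ended without olive oil replicate 3 or CCl4 replicate 2 or 3 (3.7e-07 to 0.12 over 13 other fits), and the Lyz1 call without any olive oil replicate or CCl4 replicate 2 (0.0055 to 0.10).

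Itgam, the integrin chain CD11b of monocytes and neutrophils, had 0, 0.435 and 2.59 CPM with olive oil and 10.95, 3.97 and 4.92 CPM with CCl4, highest in CCl4 replicate 1. The change of 2.64 ± 0.85 did not pass (edgeR adjusted p = 0.053), and it did pass with DESeq2 and in 4 more of the 13 other fits. Of its exonic bases, 68.7% are overlapped on the same strand by the gene model Gm49368, which had 0 counts in every sample, so that reads lying in both were counted for neither. Its value without CCl4 replicate 1 was 2.08 ± 0.80 (adjusted p = 0.066).

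Plac8 and Ms4a6c, both abundant in classical monocytes, were higher in every CCl4 sample than in any olive oil sample but did not pass, at 0.94 ± 0.40 and 0.88 ± 0.56. Of the 13 other fits, Plac8 passed in 3 (library size scaling, no filter and without olive oil replicate 2) and Ms4a6c in 0. The genes of dendritic cells, patrolling monocytes and tissue macrophages were near the floor. Itgax had 0.236 to 0.653 CPM with olive oil and 1.26 to 3.22 CPM with CCl4, without overlap, and Cx3cr1 had at most 1.09 CPM and 0.421 to 5.20 CPM. Ms4a7 had at most 1.31 CPM and 0.421 to 2.35 CPM. Over all 6 samples these 3 genes had too few counts to be tested. Itgax and Cx3cr1 entered the fits without CCl4 replicate 1 or without olive oil replicate 1, where they passed the filter only through the remaining CCl4 samples. Their changes are therefore given without a call. Without CCl4 replicate 1 they were 2.75 ± 0.77 for Itgax and 3.43 ± 0.87 for Cx3cr1. Without olive oil replicate 1 they were 2.26 ± 0.85 (edgeR adjusted p = 0.12) and 2.42 ± 1.24 (adjusted p = 0.23).

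Among the genes of both kinds of cell, 5 of 21 rose after CCl4 (23.8%) and 0 fell with edgeR, where 11.3% of all genes tested rose and 11.6% fell. At an unadjusted p under 0.05, 0 were lower. DESeq2 and limma-voom also gave 0 that fell. Their median log2 fold change was 0.86.

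Both membrane subunits of the phagocyte oxidase rose. Cybb had 6.02, 14.4 and 8.72 CPM with olive oil and 21.7, 16.6 and 26.4 CPM with CCl4 (1.11 ± 0.31, edgeR adjusted p = 0.028), and Cyba had 4.51, 10.7 and 9.66 CPM against 20.6, 13.9 and 16.6 CPM (0.998 ± 0.317, adjusted p = 0.045). Neither pair of groups overlapped. The Cyba call ended with limma-voom and without any 1 of the 6 libraries (adjusted p of 0.0044 to 0.12 over 13 other fits), and the Cybb call without olive oil replicate 1 or 3 or CCl4 replicate 3 (0.00022 to 0.12). Aif1, the macrophage protein IBA1, rose by 1.15 ± 0.36 (adjusted p = 0.045), from 2.51 to 4.48 CPM in olive oil to 5.69 to 9.52 CPM in CCl4, and this call ended with limma-voom and without any 1 library other than CCl4 replicate 1 (0.012 to 0.14). The lysosomal protease Lgmn and the pore-forming protein Mpeg1 were also higher in each CCl4 sample, with 113 to 177 CPM for Lgmn and 141 to 183 CPM for Mpeg1, but changes of 1.25 ± 0.43 and 1.16 ± 0.38 did not pass (edgeR adjusted p = 0.090 and 0.069). Both passed with DESeq2, with limma-voom, with library size scaling, in 1 fit of all 4 groups and without olive oil replicate 2, and Mpeg1 also with no filter (adjusted p of 0.0047 to 0.25 for Lgmn and 1.5e-05 to 0.23 for Mpeg1 over the 13 other fits).

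Cd14, the lipopolysaccharide co-receptor, rested on 1 library. It had 1.25, 5.66 and 2.36 CPM with olive oil and 23.6, 1.61 and 3.94 CPM with CCl4. CCl4 replicate 1 alone was high, and the change of 1.56 ± 1.15 turned to -0.23 ± 0.65 without it. That library also had the highest neutrophil sum, and the part of neutrophils in Cd14 was not tested.

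Fcer1g, the signalling chain shared by activating Fc receptors, rose by 0.90 ± 0.25 (edgeR adjusted p = 0.026), with 6.52, 10.9 and 8.95 CPM against 14.5, 17.2 and 18.5 CPM and no overlap. The call ended without olive oil replicate 1 or 3 or CCl4 replicate 2 or 3 (adjusted p of 0.0055 to 0.091 over 13 other fits). Fcgr3 and Fcgr1, which bind antibody, did not pass, at 0.95 ± 0.46 and 0.72 ± 0.42. Of the leukocyte membrane and cytoskeleton genes 1 of 6 rose, where 11.3% of all genes tested rose, and all 6 changes were positive. It was the tetraspanin Cd53, with 2.01, 6.09 and 5.18 CPM against 12.6, 10.9 and 17.9 CPM (1.59 ± 0.38, adjusted p = 0.014), again without overlap, and its call ended without olive oil replicate 3 or CCl4 replicate 3 (6.9e-05 to 0.058). Ptprc, the common leukocyte antigen CD45, changed by 0.46 ± 0.32, Laptm5 by 0.68 ± 0.37, Cd52 by 0.58 ± 0.40, Itgb2 by 0.86 ± 0.46 and Coro1a by 0.94 ± 0.33.

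**Figure D3:**
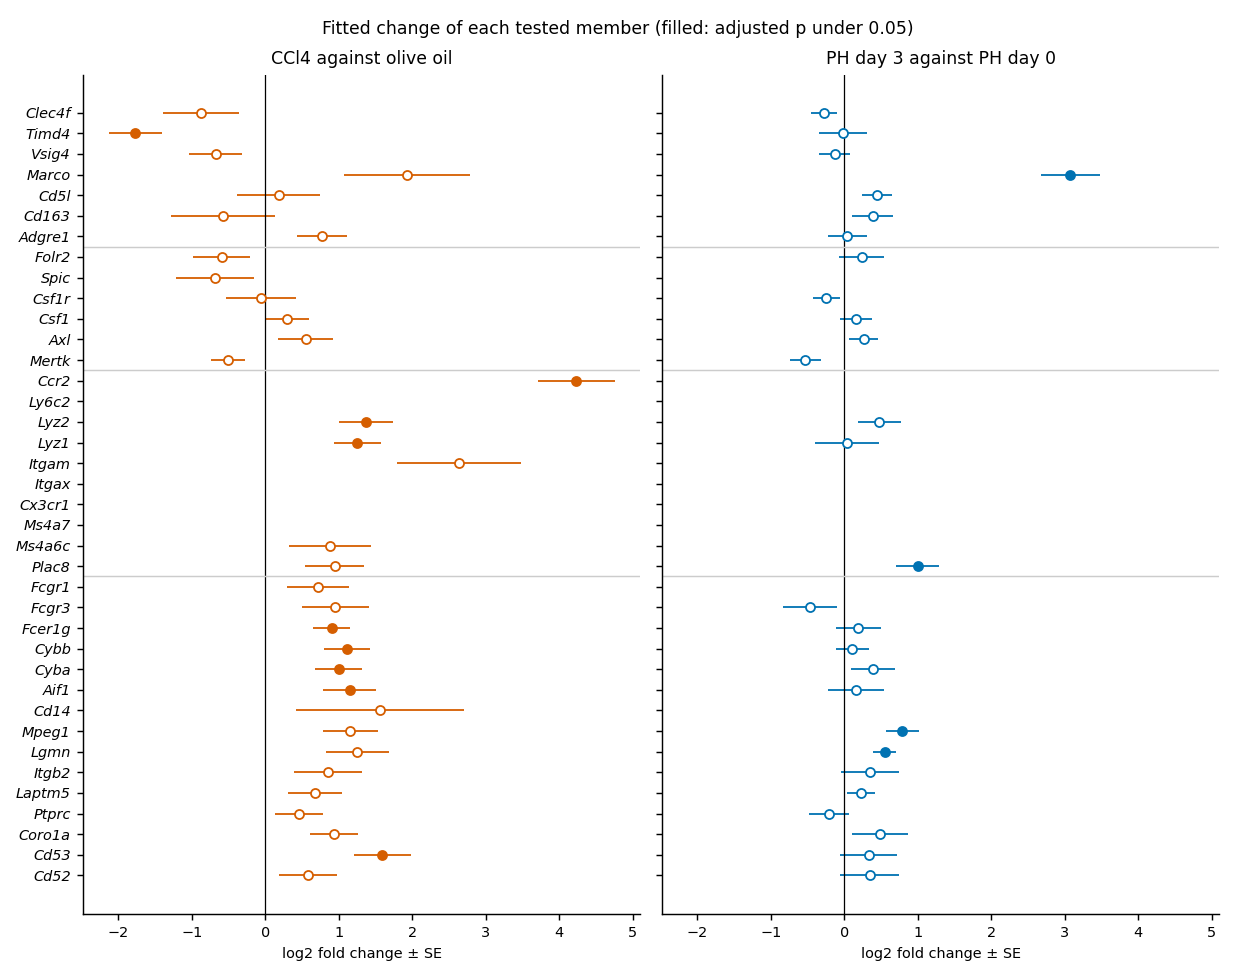
Log2 fold change with its SE of each tested member after CCl4 (left) and after PH (right), with filled points for adjusted p under 0.05 and no point for a gene too low to be tested. On the left Ccr2 at 4.24 and Timd4 at -1.77 are the extremes, and on the right Marco at 3.08 stands away from the other 27 genes, which lie between -0.53 and 1.00.

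The number of risen members after CCl4 depended on single libraries. It was 3 without olive oil replicate 1 (Ccr2, Cd53 and Lyz2), 2 without olive oil replicate 3, 3 without CCl4 replicate 2, 2 without CCl4 replicate 3, and 9 without olive oil replicate 2 or without CCl4 replicate 1. With scaling by library size alone 17 rose, and all genes tested shifted by 0.46 log2 under that scaling.

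PH day 3 and day 0 samples were compared to ask which of these genes differed in liver regrowing after surgery. Marco was 8.44-fold higher at day 3 and was the member with the largest change. Plac8, Mpeg1 and Lgmn also rose, each by 2.00-fold or less, and the resident genes other than Marco did not pass. In all 4 of 28 tested members rose (14.3%), where 9.73% of all genes tested rose. None fell with edgeR, 1 was lower at an unadjusted p under 0.05, and 0 fell with DESeq2 or limma-voom, where 8.01% of all genes fell. The median log2 fold change was 0.23 for the members and -0.01 for all genes tested.

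Marco had 7.20, 9.89, 5.59, 10.2 and 3.73 CPM in the 5 day 0 samples and 37.4, 31.1, 76.7, 98.0 and 68.5 CPM in the 5 day 3 samples. All day 3 samples were above all day 0 samples, by at least 20 CPM. The log2 fold change was 3.08 ± 0.40 (edgeR adjusted p = 0.00076), and the call held in all 18 other fits, where the change was 2.85 to 3.25. It was the only member of the 28 whose groups did not overlap, against 6.5% of all genes tested for higher levels.

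The other 6 resident genes did not pass at day 3. Clec4f had 85.6, 81.8, 63.4, 96.2 and 59.6 CPM at day 0 and 41.0, 53.2, 69.6, 82.6 and 70.1 CPM at day 3, with overlapping groups (-0.27 ± 0.18, edgeR adjusted p = 0.35). Timd4, which fell after CCl4, had 4.40 to 9.64 CPM at day 0 and 3.37 to 9.66 CPM at day 3 (-0.02 ± 0.33). Cd5l changed by 0.45 ± 0.20, Cd163 by 0.39 ± 0.28, Vsig4 by -0.13 ± 0.21 and Adgre1 by 0.04 ± 0.26. Cd5l rose only under scaling by library size or with no filter.

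Of the 10 monocyte genes, 3 had enough counts to be tested in the PH samples, and 1 of these rose, where 9.73% of all genes tested rose. Plac8 had 8.13, 7.91, 3.20, 6.26 and 2.03 CPM at day 0 and 13.8, 7.78, 12.1, 11.3 and 11.5 CPM at day 3. Day 3 replicate 13 lay within the day 0 range and the others above it, and Plac8 rose by 1.00 ± 0.29 (edgeR adjusted p = 0.018). That call ended without PH day 0 replicate 14 or without PH day 3 replicate 12. Lyz2 changed by 0.47 ± 0.29 and Lyz1 by 0.04 ± 0.44. Ccr2 had at most 2.72 CPM at day 0 and 2.49 CPM at day 3, Ly6c2 had 12 counts over the 5 day 0 samples and 5 over the 5 day 3 samples, and Itgam had at most 0.494 and 3.11 CPM.

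Of the genes of both kinds of cell, 2 of 18 tested rose after PH (11.1%), a share near the 9.73% of all genes tested. Mpeg1 had 137, 87.0, 61.5, 119 and 110 CPM at day 0 and 198, 203, 114, 191 and 172 CPM at day 3, with day 3 replicate 14 inside the day 0 range (0.79 ± 0.23, edgeR adjusted p = 0.040). Lgmn had 43.4 to 71.2 CPM at day 0 and 56.3 to 94.1 CPM at day 3 (0.55 ± 0.15, adjusted p = 0.020). The Mpeg1 call ended when any 1 of 7 libraries was left out, all but PH day 0 replicates 12 and 14 and PH day 3 replicate 14, and the Lgmn call without PH day 0 replicate 15 or PH day 3 replicate 15 or 16. Without any 1 of these last 3 libraries, 2 members rose, Marco and Plac8. Csf1r changed by -0.25 ± 0.18, Csf1 by 0.16 ± 0.22, Axl by 0.26 ± 0.19 and Mertk by -0.53 ± 0.21 (adjusted p = 0.083). None of the 6 leukocyte membrane and cytoskeleton genes rose, with changes of -0.21 to 0.48, and 0 of them rose with DESeq2, with limma-voom or at an unadjusted p under 0.05.

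The responses to CCl4 and to PH were compared directly in 1 fit of all 16 samples, over 11868 genes. Of 35 tested members, 1 had a higher response to CCl4 (2.86%) and 0 a lower one with edgeR, where 1.47% of all genes were called higher and 3.87% lower. DESeq2 gave 1 and 1 and limma-voom 0 and 0, and at an unadjusted p under 0.05 4 were higher and 2 lower. The gene was Ccr2, which was too low to be tested after PH alone. It entered this fit through the CCl4 samples, where it was high. Its response to CCl4 exceeded that to PH by 3.35 ± 0.92 on the log2 scale (edgeR adjusted p = 0.033). This call ended with limma-voom and without olive oil replicate 1 or 3, CCl4 replicate 2 or 3, or PH day 0 replicate 13. The response of Timd4 was lower after CCl4 by 1.72 on the log2 scale (-1.72 ± 0.52, adjusted p = 0.051), and it passed in 8 of 22 other fits, with DESeq2 among them. The Marco responses of 1.93 and 3.08 differed by -1.13 ± 0.85 (adjusted p = 0.53), which does not show that they were alike. The injection and PH samples come from separate experiments by the file headers, so the kind of challenge and the experiment cannot be told apart.

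Summed levels set the resident against the monocyte genes within each sample. The 7 resident genes summed to 134, 409 and 264 CPM with olive oil and to 217, 220 and 362 CPM with CCl4, and these ranges overlapped. The 10 monocyte genes summed to 30.6, 92.0 and 71.8 CPM with olive oil and 165, 186 and 200 CPM with CCl4, without overlap. Most of the monocyte sum was Lyz2, with a mean of 48.9 of 64.8 CPM in olive oil and 129 of 184 CPM in CCl4.

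The ratio of the monocyte to the resident sum was 0.228, 0.225 and 0.272 in olive oil and 0.763, 0.847 and 0.553 in CCl4. Olive oil replicate 1, low on both sums, had a ratio between those of the other olive oil samples. In PH the ratio was 0.209 to 0.303 at day 0 and 0.422, 0.215, 0.371, 0.196 and 0.223 at day 3, where replicates 12 and 14 were above the day 0 range and replicate 15 below it. With Marco left out of the resident sum, the ratio was 0.231 to 0.288 in olive oil and 1.24, 1.01 and 0.627 in CCl4. In PH it was then 0.219 to 0.317 on day 0 and 0.525, 0.258, 0.486, 0.266 and 0.292 on day 3, with replicates 12 and 14 above the day 0 range and the other 3 within it. A ratio within a sample does not change with the scaling between libraries.

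**Figure D4:**
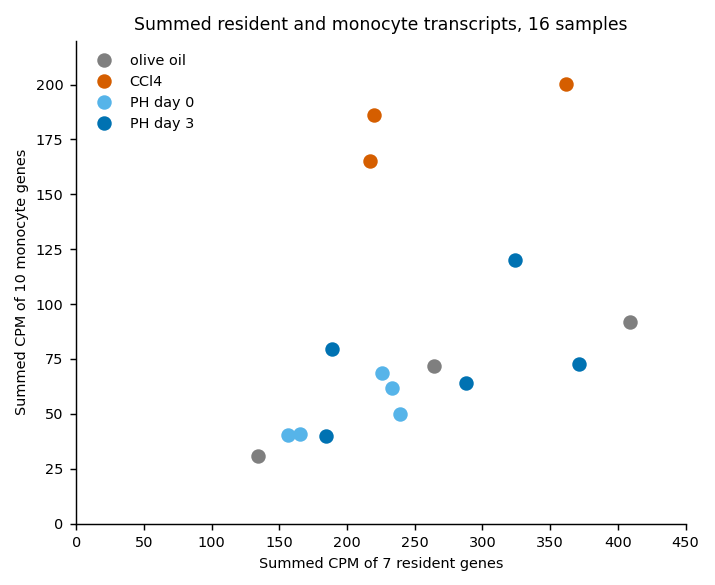
Summed CPM of the 10 monocyte genes (vertical axis) against summed CPM of the 7 resident genes (horizontal axis), with each point 1 of the 16 samples and colours for the 4 groups. The 3 CCl4 samples lie highest, at 165 to 200 CPM of monocyte genes, while their resident sums of 217 to 362 CPM lie inside the olive oil range of 134 to 409 CPM.

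Proportions among the resident genes are given as ratios to Clec4f in the same sample. They are a description, since they were chosen after the values were seen, and they are set side by side between groups only. The ratio of Marco to Clec4f was 0.0291, 0.180 and 0.152 in olive oil and 2.56, 0.927 and 0.484 in CCl4, and in PH it was 0.0625 to 0.121 on day 0 and 0.585 to 1.19 on day 3. Groups were apart in both experiments. The ratio of Cd5l to Clec4f was likewise apart in both, at 0.834 to 1.13 in olive oil, 1.78 to 2.72 in CCl4, 0.852 to 1.05 on PH day 0 and 1.27 to 1.86 on PH day 3. Marco made up 1.12% to 6.01% of the resident sum in olive oil and 11.7% to 38.6% in CCl4, and in PH 2.38% to 4.38% on day 0 and 16.9% to 26.4% on day 3.

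Adgre1 and Timd4 were apart from Clec4f in the injection experiment and not after PH. The Adgre1 ratio was 0.0781 to 0.121 in olive oil and 0.284 to 0.355 in CCl4, and the Timd4 ratio was 0.110 to 0.146 and 0.0486 to 0.0823. After PH the groups overlapped for both. The Timd4 ratio was 0.0458 to 0.118 on PH day 0 and 0.0481 to 0.122 on PH day 3. The CCl4 values thus lay inside the range of the PH baseline samples. The ratios of Vsig4 and Cd163 overlapped in both experiments.

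**Figure D5:**
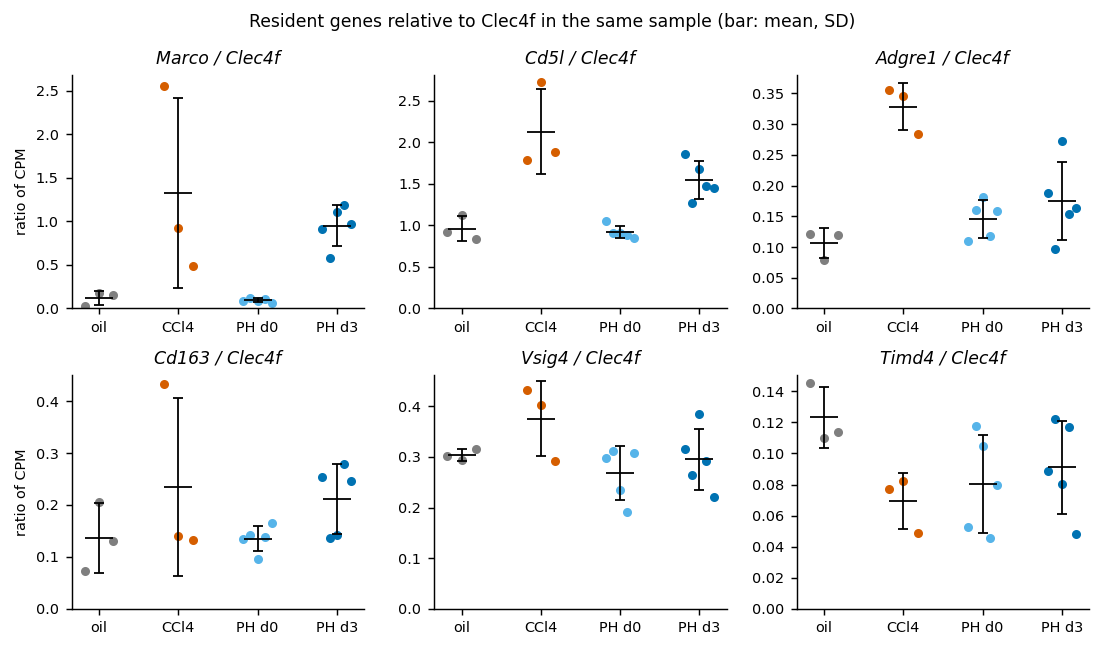
CPM of 6 resident genes divided by the CPM of Clec4f in the same sample, with each point 1 sample, the horizontal bar the mean and the error bar the SD (n = 3, 3, 5 and 5). Marco and Cd5l are higher relative to Clec4f in CCl4 and at PH day 3 than in the matching controls. Timd4 is lower in CCl4 than in olive oil, at 0.0486 to 0.0823 against 0.110 to 0.146, but inside the PH day 0 range of 0.0458 to 0.118.

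The order of the members by level per length, in mean CPM per kilobase of exon, also differed between groups. Cd5l was first in olive oil (46.6), followed by Clec4f (38.7) and Lyz2 (37.2), and the same 3 genes led at PH day 0 (35.1, 31.3 and 28.7). The means of these neighbours differed by less than the SD over samples. In CCl4 Lyz2 was first (98.4), then Lgmn (58.1), Cd5l (54.0), Mpeg1 (38.9), Marco (28.1) and Clec4f (21.5). At PH day 3 the order was Cd5l (47.5), Mpeg1 (40.5), Lyz2 (39.7), Lgmn (33.5), Marco (32.4) and Clec4f (25.6), so Marco stood just above Clec4f in both challenged groups, by less than the SD over samples. In the control groups it was far below Clec4f, at 7.13 in olive oil and 3.80 at PH day 0.

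Over all 16 samples the genes whose log2(CPM + 1) was most like that of Clec4f, among 12349 genes, were Fcna (Pearson r = 0.89), Lemd2 (0.86), Akap8l (0.84), Sh3bp2 (0.84) and Vsig4 (0.84). Those most like Ccr2 were Trem2 (r = 0.94), Sirpa (0.94), Tmsb4x (0.92), Srsf1 (0.91) and Pola1 (0.91). The samples fall into 4 groups, so that genes moving with the groups share these values, and the correlations are descriptive.

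Further genes of the same cells were read from lists of their own. Of 26 tested Kupffer cell genes outside the 38, 4 rose and 5 fell after CCl4, with a median of 0.20, where 11.3% of all genes tested rose and 11.6% fell. The regulators of transcription Id1 (2.78 ± 0.49, edgeR adjusted p = 0.0046) and Id3, the haem-degrading enzyme Hmox1 and the lysosomal protein Cd68 rose, while the complement component C6 (-1.37 ± 0.23, adjusted p = 0.0024), Nr1h3, Hpgd and Pltp were among those that fell. Id1 and C6 had the smallest adjusted p of the list and the others were likewise named after their values were seen. Several of these genes, C6 and Nr1h3 among them, are also expressed by other liver cells. After PH 1 of 25 rose (Hmox1, 1.17 ± 0.16) and 2 fell (C6, -0.74 ± 0.10, and Slc40a1, which exports iron and was named after its value was seen), where 9.73% of all genes rose and 8.01% fell. These counts are near the shares over all genes.

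Of 11 tested monocyte genes outside the 38, 3 rose and 0 fell after CCl4 with edgeR, where 11.3% of all genes tested rose and 11.6% fell. After PH 0 of 7 rose or fell, where 9.73% of all genes tested rose and 8.01% fell. At an unadjusted p under 0.05 1 was lower after CCl4 and 1 higher after PH, DESeq2 gave 1 that fell after CCl4 and limma-voom 0, and both gave 0 that rose or fell after PH. F13a1, a transglutaminase of monocytes, had 0 counts in the olive oil group and 129 in the CCl4 group, at least 29.2-fold more against a floor of 3 counts over the group. S100a6 rose by 3.04 ± 0.57 (edgeR adjusted p = 0.0046) and Ifitm3, named after its value was seen, by 0.63 ± 0.20. F13a1 and S100a6 passed the filter through the CCl4 samples, as S100a6 had only 0.502 to 1.96 CPM with olive oil. The 3 of 11 is therefore the count of a partly selected set. In PH the 2 with the smallest p were Cd44 (0.78 ± 0.29, adjusted p = 0.061) and Fn1 (0.17 ± 0.10).

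Signals that recruit monocytes or support macrophages were tested for 12 of 26 genes after CCl4. Of the 12, 4 rose and 0 fell, where 11.3% of all genes tested rose and 11.6% fell. At an unadjusted p under 0.05, with DESeq2 and with limma-voom, 0 were lower. The adhesion molecule Vcam1, which leukocytes bind on vessel walls, rose by 1.80 ± 0.29 (edgeR adjusted p = 0.0017), and Csf2rb, a chain of the GM-CSF receptor, by 1.28 ± 0.31 (adjusted p = 0.015). Icam1 and Tgfbr2, named after their values were seen, were the others. The chemokine Ccl7, a ligand of CCR2, had 0 counts in the olive oil group and 38 in the CCl4 group, at least 8.59-fold more. After PH 4 of 13 rose and 0 fell, also by the other tools and at an unadjusted p under 0.05, led by Pros1 (0.60 ± 0.10, adjusted p = 0.00013), a ligand of MERTK, and Gdf2 (1.21 ± 0.25, adjusted p = 0.0015), a BMP made in liver, with Gas6 and Icam1 named after their values were seen. Over all genes tested after PH, 9.73% rose and 8.01% fell.

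Genes of lipid-associated macrophages, a state described in injured and fatty tissue, were measured beside the members. After CCl4 7 of 13 rose and 1 fell, where 11.3% of all genes tested rose and 11.6% fell. The list was led by Gpnmb (7.04 ± 0.32, edgeR adjusted p = 5.0e-06) and Mmp12 (5.21 ± 0.48, adjusted p = 9.6e-05). Gpnmb had 0.218 to 0.502 CPM with olive oil, and both genes passed the filter through the CCl4 samples. The 7 of 13 is therefore the count of a partly selected set. After PH 5 of 9 rose and 1 fell, where 9.73% of all genes tested rose and 8.01% fell. It was led by Cd9 (1.33 ± 0.19, adjusted p = 2.3e-05) and by Apoe, which hepatocytes express abundantly and which fell (-0.64 ± 0.11, adjusted p = 0.00011). The genes of this list are shared with other liver cells.

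Markers of other cell types moved with some of these results. The 12 neutrophil genes summed to 1.25, 24.4 and 7.77 CPM in olive oil and 79.8, 8.05 and 17.7 CPM in CCl4, and in PH they summed to 1.02 to 4.64 CPM on day 0 and 4.08 to 19.3 CPM on day 3. None of the 3 tested passed after CCl4, and 0 passed with DESeq2 or limma-voom or at an unadjusted p under 0.05. T cell genes summed to at most 7.46 CPM in any sample, B cell and plasma cell genes to 6.84, NK cell genes to 2.17 and dendritic cell genes to 12.5 CPM. Liver endothelial cell genes summed to 153 to 171 CPM in olive oil and 195 to 210 CPM in CCl4, and stellate cell and myofibroblast genes to 121 to 164 and 345 to 903 CPM. Of these genes 2 of 9 endothelial and 5 of 8 stellate genes rose after CCl4, where 11.3% of all genes tested rose, and 3 of 9 endothelial genes fell and 3 of 8 stellate genes rose after PH, where 8.01% fell and 9.73% rose. Of 5 red blood cell genes, all 5 fell after CCl4, where 11.6% of all genes tested fell, and 1 fell after PH. Of 7 cell division genes, 7 rose after both. The part of these cells in the members' changes was not tested.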

How the data were processed

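Polyadenylated RNA was sequenced from 16 samples on 1 lane. The authors deposited raw counts per gene, made with featureCounts 1.6.2 on exons of Ensembl 95 (GRCm38), reverse-stranded, leaving out reads that map or overlap more than once, per the file headers. Alignment used STAR 2.5.1 and Subread is named, per the submitters' processing notes. Symbols came from GENCODE M21 for 54809 of 54838 identifiers. Replicates differed beyond sampling noise (chi-square per degree of freedom of 5.51 to 72.3, highest for the pairs that hold CCl4 replicate 1).

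Each experiment was fitted alone with edgeR 4.0.16 (R 4.3.3), with TMM scaling, genes of at least 10 counts in enough samples and 15 in all, and quasi-likelihood F tests with Benjamini-Hochberg adjustment over all tested genes. The SE is the log2 fold change divided by the root of F. The difference of responses came from 1 fit of 4 groups. CPM used TMM-scaled library sizes. Scripts were tested on simulated counts. Alternatives were library size and RLE scaling, DESeq2 1.42.0, limma-voom 3.58.1, other filters and thresholds, 1 fit of all groups, a replicate block and each sample left out. Members were named where called or at 1 CPM or more in a group, and other lists by the 2 smallest adjusted p. The values of 1 gene outside the members are not reported here. The members and lists were chosen with earlier results of these data known.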

Additional observations from a re-analysis of the deposited data

Results flagged for a closer look

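Within groups of 5 samples, 5 values stood apart from the rest by Dixon's criterion (a gap of over 0.71 of the group's range), out of 56 groups of values tested, and chance gives about 1 in 20. In PH day 3 replicate 14 Itgb2, an integrin chain of leukocytes, was at 12.7 CPM with the next sample at 7.93, Fcer1g at 15.5 CPM with the next at 7.76, and Laptm5, a lysosomal protein of leukocytes, at 27.7 CPM with the next at 18.9. In PH day 3 replicate 15 Cd52 was at 6.67 CPM with the next at 3.11, and in PH day 0 replicate 13 Fcgr3 was at 8.65 CPM with the next at 5.42.

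The response of Ccr2 differed between the challenges by a test of the difference itself, at 3.35 on the log2 scale (edgeR adjusted p = 0.033, with 0.0080 to 0.14 over the other fits). Ccr2 was too low to be tested after PH alone and entered that fit through the CCl4 samples, where it was high.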

How the results depend on the processing

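Ccr2 and Timd4 after CCl4 and Marco after PH passed in every fit run (adjusted p of 1.1e-14 to 0.013, 7.9e-05 to 0.033 and 3.9e-13 to 0.0040), and the cause of the following shifts was not tested. The 8 members that rose after CCl4 became 17 with library size scaling (under which all genes shifted by 0.46 after CCl4, 0.13 after PH and 0.30 in the difference), 19 with no filter, 13 in 1 fit of 4 groups, 1 at an adjusted p under 0.01 and 2 to 9 with a sample left out, and the 1 that fell became 2 with no filter and 1 to 2 with a sample left out. The 4 that rose after PH became 2 in 1 fit of 4 groups, 1 at an adjusted p under 0.01, 1 at a log2 fold change of at least 1 and 2 to 5 with a sample left out, where 0 to 1 fell (Mertk without PH day 3 replicate 14). For the difference of the responses, 1 member was called higher, against 2 with library size scaling (Ccr2 and Cybb), 0 with limma-voom, 0 at an adjusted p under 0.01 and 0 to 2 with a sample left out, and 0 were called lower, against 1 (Timd4) with RLE scaling, DESeq2 or no filter and 0 to 1 with a sample left out. The resident median after CCl4 was -0.99 to 0.25 with a sample left out, highest without olive oil replicate 2, and the monocyte median 1.13 to 1.61 over the same genes.

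Signs turned only for genes that did not pass. In the difference, signs were followed only for resident genes and members called in either comparison. Other members turned there too, such as Cd14, at 1.51 in the main fit and -0.29 without CCl4 replicate 1. With library size scaling the values were 0.43 for Csf1r after CCl4, 0.0013 for Vsig4 and 0.10 for Timd4 after PH, and 0.13 for Cd5l and 0.26 for Plac8 in the difference. With limma-voom they were 0.085 for Csf1r after CCl4, -0.025 for Fcer1g, -0.15 for Lyz1, 0.019 for Timd4 and -0.082 for Adgre1 after PH, and 0.13 for Plac8 in the difference. With a sample left out the values ran after CCl4 from -0.23 to 0.71 for Cd5l, -1.04 to 0.25 for Cd163, -0.44 to 0.35 for Csf1r and -0.23 to 2.34 for Cd14. After PH they ran from -0.23 to 0.22 for Adgre1, -0.30 to 0.22 for Timd4, -0.14 to 0.32 for Lyz1, -0.21 to 0.32 for Fcer1g, -0.067 to 0.50 for Cd52 and -0.25 to 0.32 for Aif1. In the difference they ran from -0.64 to 0.31 for Cd5l and -0.39 to 0.57 for Plac8.

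With the replicate block, in which PH samples of the same number are paired, 3 members rose, the Lgmn call ended and Adgre1 was at -0.034. Deviations of same-numbered samples correlated at 0.05, -0.01, -0.05, 0.07 and 0.12 over 9280 genes. For 2 of 5 numbers, 15 and 16, the day 0 and day 3 samples were each other's highest correlation. These values do not settle whether a number marks an animal, and the main fit left the samples unpaired. Depth limits the genes near 1 CPM, where 3 counts are 0.372 to 1.02 CPM.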
